A study of Mus musculus with 8 samples.

Results

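This report covers the genes of prostaglandin synthesis and prostaglandin receptors in mouse fibrosarcoma cell lines. The members were chosen by symbol: the cyclooxygenases Ptgs1 and Ptgs2, the terminal synthases Ptges, Ptges2, Ptges3 and Ptgis, the receptors Ptger1, Ptger2 and Ptger4, and the inactivating enzyme Hpgd. Of these 10 genes, 9 were among the 18768 genes of the deposited table and all 9 passed the filter on low counts, which left 15153 genes for testing. Hpgd, the dehydrogenase that inactivates prostaglandins, was not analysed here.

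RNA was sequenced from 4 untreated cell lines, with 2 libraries per line. MC010 and MC011, labelled IRF8 KO, came from fibrosarcomas of mice with a germline Irf8 deletion. MC654 and MC659, labelled WT, came from fibrosarcomas of C57BL/6 mice. Mice of both genotypes had received methylcholanthrene, a chemical carcinogen, under the skin in peanut oil, and cells of each tumor were passaged into a stable culture. Each line is thus 1 tumor, so the label comparison has 2 lines against 2, for which an exact permutation test cannot go below p = 0.333. Nothing in the labels says how the 2 libraries of a line were separated, and p-values measure the spread between libraries, which may be technical.

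Prostaglandins are lipid signals made on demand. A phospholipase frees arachidonic acid from membranes, a cyclooxygenase turns it into the unstable intermediate PGH2, and a terminal synthase turns PGH2 into PGE2, prostacyclin or another prostanoid. PGE2 leaves the cell and binds EP receptors, of which EP1 is linked to calcium signals, EP2 and EP4 raise cAMP and EP3 mostly lowers it. Cyclooxygenase 1 is the form most cells keep at a steady level, cyclooxygenase 2 is induced by growth factors, cytokines and stress, and PGE2 from tumors is known for dampening immune responses.

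Libraries held 74063616 to 116206078 counts, and 3 counts, taken as the floor, corresponded to 0.0262 to 0.0408 CPM. CPM are TMM-scaled counts relative to the size of the library. Irf8 itself had 442 and 347 counts in MC010, 32 and 10 in MC011, 1 and 2 in MC654, and 1 and 0 in MC659. This RNA went against the labels, and counts over the whole gene do not tell which exons were read. The paper reports PCR genotyping of genomic DNA that gave each line the genotype of its label. Each line is therefore called below by its label. Mesenchymal markers were read in every line, with all 10 of the list in the table. They summed to 9748 to 10530 CPM in libraries labelled IRF8 KO and 14420 to 16160 CPM in those labelled WT. Fn1 had the largest part in this, with means of 1587 against 7973 CPM, whereas Vim had 6221 against 4745 CPM. By the thresholds given below, 3 of the 10 were higher between labels and 1, Fn1, was lower (13.7% and 8.72% of all genes). Of 10 hematopoietic markers 6 were in the table and summed to 17.8 to 23.6 CPM against 16.4 to 16.6 CPM, mostly Cd14 and Cd68, with Ptprc (CD45) at 0 to 0.177 CPM. Of 8 endothelial markers 6 were in the table and summed to 1.05 to 2.47 CPM against 0.703 to 0.887 CPM. Of 8 epithelial markers 6 were in the table and summed to 34.1 to 565.3 CPM against 113.9 to 128.5 CPM. The highest sums were those of MC010, from Krt8 and Krt18, with Epcam at 0.118 to 1.19 CPM over all libraries. The part of these markers in the results was not tested.

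Most of the members differed between lines more than between the libraries of a line. Genes were called at an adjusted p under 0.05 with a log2 difference above 0.59 in size, in quasi-likelihood fits by edgeR whose p-values were adjusted by Benjamini-Hochberg across the tested genes. Over the 4 lines, 7 of 9 members were called, where 51.9% of all genes were called. In such bulk RNA, fewer cells of a kind and less RNA per cell cannot be told apart. Between the labels, 4 of 9 were called, all higher in the libraries of MC010 and MC011: Ptgs1, Ptges, Ptgis and Ptger1. This fit takes the 2 libraries of a line as independent. Ptgs1 and Ptges alone were called with the line as a random block (limma-voom), and 0 members with counts summed per line, where 3 had an unadjusted p under 0.05. Of all genes, 22.5% were called in that comparison, 13.7% as higher and 8.72% as lower. No member was called lower by edgeR or by DESeq2, and at an unadjusted p under 0.05 only Ptges3 was lower, in both tools. The members had a median log2 difference between labels of 1.01 and all genes tested 0.02. In absolute size the medians were 1.51 and 0.36. The members were chosen with earlier results of these data known, so the counts and medians beside all genes are a description.

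**Figure D1:**
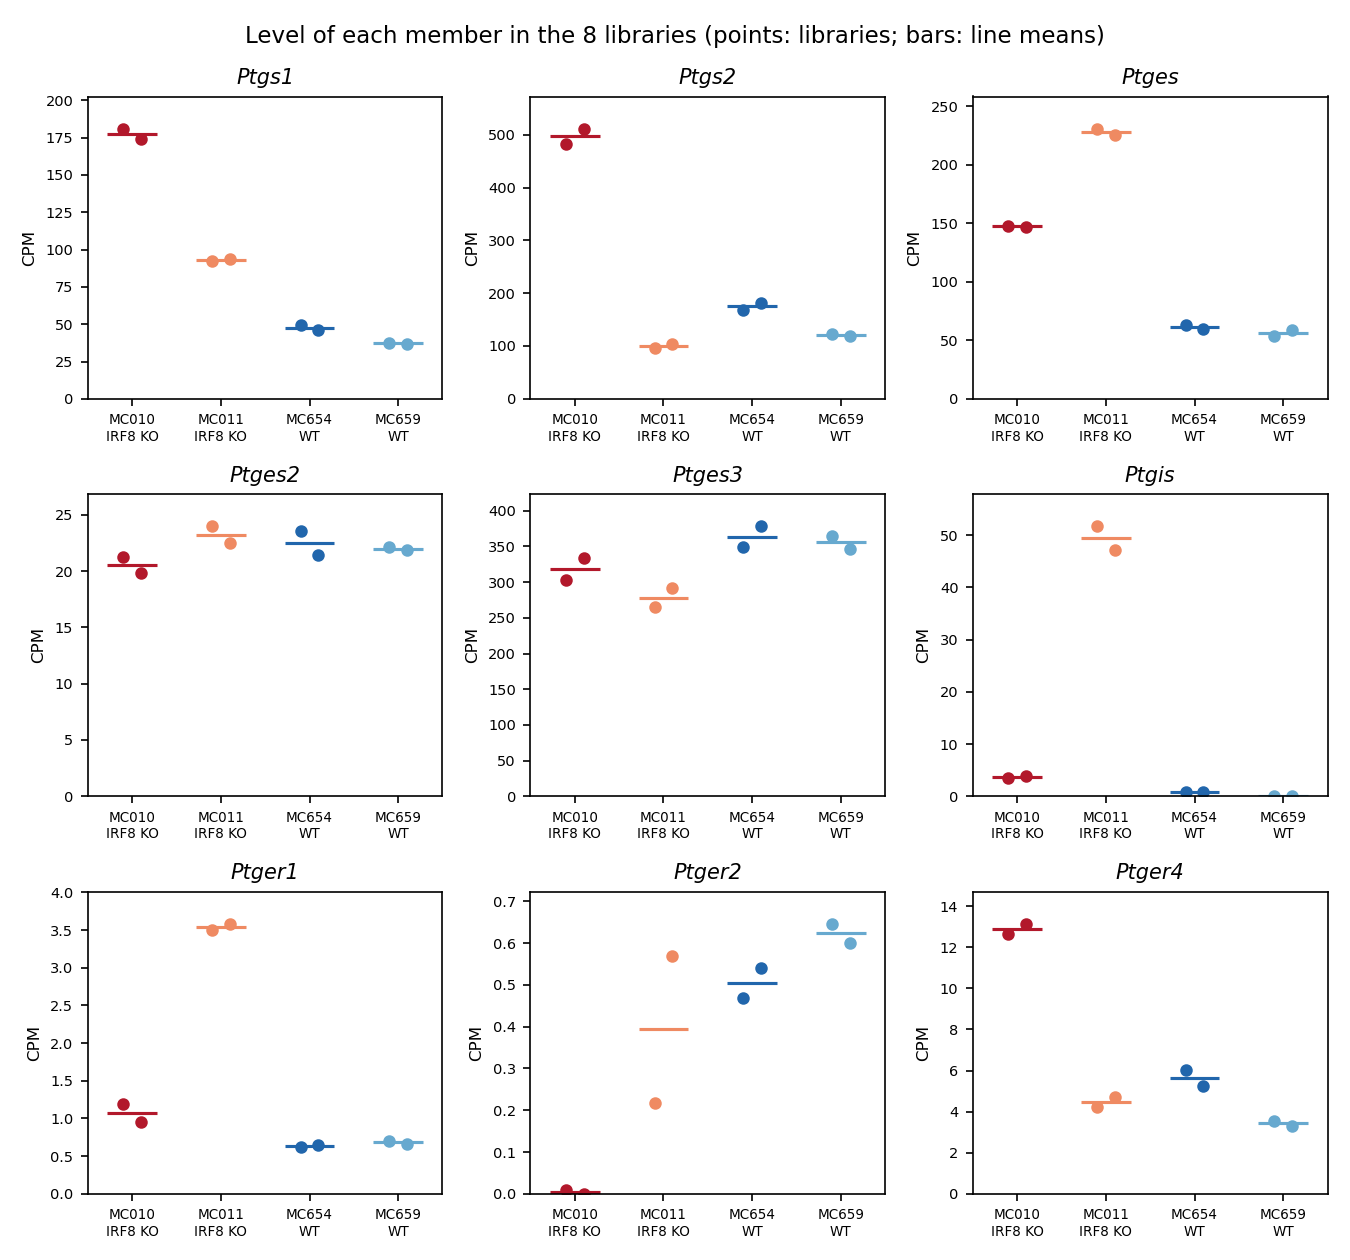
Level of the 9 members in CPM (linear axes from 0, each gene on its own scale) in each of the 8 libraries, with a bar at the mean of each line. Ptgs1, Ptges, Ptgis and Ptger1 lay higher in all 4 libraries labelled IRF8 KO than in all 4 labelled WT, whereas Ptgs2 and Ptger4 stood out in MC010 and Ptger2 was near 0 in MC010.

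Windows of 300 bases around the RefSeq start (250 before it and 50 after it, build GRCm38.p6) were held for 8 of the 10 members, not for Ptgis or Ptger1. The windows of the cyclooxygenase genes and of Ptges are shown because these 3 genes carry the main differences on the path to PGE2. Capitals mark every match to 8 motifs searched on both strands: TATAAA, the cAMP response element core TGACGT, the AP-1 site TGANTCA, the E-box CACGTG, the C/EBP-type site TTGCNNAA, the interferon-stimulated response element core, the ETS-IRF composite element, and the NF-kB consensus. The windows lie at chr1:150099781-150100080 on the plus strand for Ptgs2, at chr2:36230176-36230475 on the plus strand for Ptgs1 and at chr2:30903248-30903547 on the minus strand for Ptges.
Ptgs2: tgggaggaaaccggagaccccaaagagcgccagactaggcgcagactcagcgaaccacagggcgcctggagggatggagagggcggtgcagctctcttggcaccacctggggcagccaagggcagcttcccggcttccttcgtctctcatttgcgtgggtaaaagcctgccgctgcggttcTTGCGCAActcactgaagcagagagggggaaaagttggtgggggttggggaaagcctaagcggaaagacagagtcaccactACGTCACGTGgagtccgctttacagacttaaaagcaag
Ptgs1: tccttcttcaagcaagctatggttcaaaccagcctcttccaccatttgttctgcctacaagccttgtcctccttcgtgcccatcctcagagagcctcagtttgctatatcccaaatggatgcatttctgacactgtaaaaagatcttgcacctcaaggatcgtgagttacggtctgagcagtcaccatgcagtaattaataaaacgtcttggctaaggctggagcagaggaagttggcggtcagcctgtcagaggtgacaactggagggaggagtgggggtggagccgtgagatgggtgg
Ptges: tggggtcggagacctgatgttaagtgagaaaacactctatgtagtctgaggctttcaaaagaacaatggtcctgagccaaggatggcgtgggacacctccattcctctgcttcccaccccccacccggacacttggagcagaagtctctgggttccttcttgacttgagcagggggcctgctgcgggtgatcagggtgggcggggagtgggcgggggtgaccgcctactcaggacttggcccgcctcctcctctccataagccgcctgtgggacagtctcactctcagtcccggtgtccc
The Ptges window lies inside the span that the annotation gives for the gene. In the Ptgs2 window, TTGCGCAA starts 69 bases before the transcript start. ACGTCA, the reverse complement of TGACGT, starts at base 13 of the transcript and overlaps the CACGTG that starts at base 17. Of 32851 promoter windows of the same length, 10.8% held TTGCNNAA, 7.51% TGACGT and 7.15% CACGTG. None of the 8 motifs was found in the Ptgs1, Ptges, Ptges3 and Ptger4 windows. The window of Ptges2 held CACGTG and that of Ptger2 held TTGCTTAA. TATAAA was in 13.6% of all windows, TGANTCA in 7.81%, the interferon-stimulated response element core in 3.44%, the ETS-IRF composite element in 2.72% and the NF-kB consensus in 4.51%. These matches are letters in a window and not measured binding.

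Ptgs1 (ENSMUSG00000047250), the gene of cyclooxygenase 1, covers chromosome 2 from 36230426 to 36252272 of mm10. Its level was 181 and 174 CPM in MC010, 92.5 and 93.9 CPM in MC011, and, in the same unit, 49.3 and 46.3 in MC654 and 37.3 and 36.9 in MC659. All 4 libraries labelled IRF8 KO were above all 4 labelled WT, and MC010 was higher than MC011. The mean was 135 ± 48.7 CPM (SD, n = 4 libraries) in lines labelled IRF8 KO and 42.4 ± 6.28 CPM (SD, n = 4 libraries) in the WT-labelled ones. The log2 difference between labels was 1.67 (SE 0.26, adjusted p = 0.00169, edgeR). MC010 exceeded MC011 by 0.93 (SE 0.05, adjusted p = 2.03e-10) on the log2 scale, and MC654 exceeded MC659 by 0.37 (SE 0.05), under the fold threshold.

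Ptgs2 (ENSMUSG00000032487), the gene of the inducible cyclooxygenase 2, covers chromosome 1 from 150100031 to 150108227. MC010 held 483 and 511 CPM, MC011 96.8 and 104 CPM, MC654 169 and 181 CPM, and MC659 122 and 119 CPM. Unlike Ptgs1, the gene was high in MC010 alone, and MC011 had the lowest level of the 4 lines. The labels therefore overlapped, with means of 299 ± 229 CPM and 148 ± 31.8 CPM (SD, n = 4 libraries each). The log2 difference between labels, 1.02 (SE 0.57), was not called (edgeR, adjusted p = 0.201), and it was 0.63 or 0.68 without 1 library of MC010 and 0.92 to 1.31 without 1 library of another line. Taken line by line against the mean of the lines labelled WT, the log2 difference was 1.77 (SE 0.04, adjusted p = 8.15e-15) for MC010 and -0.53 (SE 0.05, adjusted p = 6.78e-08) for MC011, the latter under the fold threshold. In the order MC010, MC654, MC659, MC011, the first step was called (1.51, SE 0.05) and the other steps, of 0.54 and 0.26, were under the fold threshold with adjusted p of 4.58e-06 and 0.000454.

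The balance of the cyclooxygenases also differed by line. On the RPKM scale, which divides CPM by the exon length in kilobases, the ratio of the Ptgs2 level to the Ptgs1 level was 2.26 and 2.49 in MC010, 0.888 and 0.941 in MC011, 2.90 and 3.32 in MC654, and 2.78 and 2.74 in MC659. Ptgs2 was the higher of the pair in all libraries except those of MC011. This is a description with no test.

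A pair of noncoding genes near Ptgs2 was looked up after their values were seen. Ptgs2os, on the opposite strand from 150074873 to 150099963 and so ending just before the Ptgs2 start, had 9.27 and 7.74 CPM in MC010, 4.03 and 2.89 in MC011, 5.75 and 5.81 in MC654, and 3.84 and 4.26 in MC659. Its order of lines was that of Ptgs2, with MC010 above MC011 by 1.30 on the log2 scale (SE 0.15, adjusted p = 2.13e-06). Ptgs2os2, from 150159043 to 150164948, had line means of 29.6, 11.1, 7.74 and 5.68 CPM in MC010, MC011, MC654 and MC659, an order that is that of Ptgs1 instead. The difference of Ptgs2os2 between labels was 1.60 (SE 0.38, adjusted p = 0.0124).

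Ptges (ENSMUSG00000050737), the inducible microsomal PGE synthase that works with cyclooxygenase 2, covers chromosome 2 from 30889471 to 30929863 on the minus strand. Libraries of MC010 had 148 and 147 CPM and those of MC011 had 231 and 226 CPM. MC654 had 62.7 and 59.9 CPM and MC659 had 53.9 and 58.8 CPM. The labels did not overlap, and MC011, not MC010, was the highest line. The log2 difference between labels was 1.68 (SE 0.17, adjusted p = 0.000233), with means of 188 ± 46.5 CPM and 58.8 ± 3.68 CPM (SD, n = 4 libraries each). MC011 exceeded MC010 by 0.63 (SE 0.05, adjusted p = 2.85e-08), whereas MC654 and MC659 differed by 0.12 (SE 0.05, adjusted p = 0.144).

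The other PGE synthases varied little. Ptges2, a membrane-associated PGE synthase, had 21.2 and 19.8 CPM in MC010, 24.0 and 22.5 CPM in MC011, and, in the same unit, 23.5 and 21.4 in MC654 and 22.1 and 21.8 in MC659. All libraries lay within this narrow range and the labels overlapped. The log2 difference between labels was -0.02 (SE 0.08, adjusted p = 0.843), and the test over lines gave an adjusted p of 0.155.

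Ptges3, a cytosolic PGE synthase better known as the Hsp90 cochaperone p23, had 303 and 334 CPM in MC010, 265 and 291.5 CPM in MC011, and, in the same unit, 349 and 378 in MC654 and 365 and 347 in MC659. Each library of MC010 and MC011 was below each of MC654 and MC659. The log2 difference of -0.27 (SE 0.08) had an adjusted p of 0.0243 and was under the fold threshold. The processed pseudogene Ptges3-ps, also looked up afterwards, had line means of 14.7 to 19.6 CPM with a log2 difference of -0.33 (SE 0.08). The value of Ptges3 is uncertain to the extent that reads of the pair were split.

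Ptgis (ENSMUSG00000017969), prostacyclin synthase, had the widest range of the members. It covers chromosome 2 from 167191805 to 167240604 on the minus strand. MC011 had 51.7 and 47.2 CPM and MC010 had 3.56 and 3.91 CPM. MC654 had 0.743 and 0.836 CPM, and MC659 had 0.113 and 0.111 CPM from 10 counts in each library. Every step between neighbours in the order MC011, MC010, MC654, MC659 was called, with log2 steps of 3.73 (adjusted p = 3.29e-14), 2.23 (adjusted p = 6.28e-10) and 2.80 (adjusted p = 3.12e-06). Between labels the log2 difference was 5.88 (SE 1.27, adjusted p = 0.00796). That call was lost with the line as a random block (adjusted p = 0.306), with counts summed per line (adjusted p = 0.195) and without MC659 (adjusted p = 0.0930). It was 7.37 (SE 0.10) for MC011 and 3.63 (SE 0.13) for MC010 against the lines labelled WT.

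**Figure D2:**
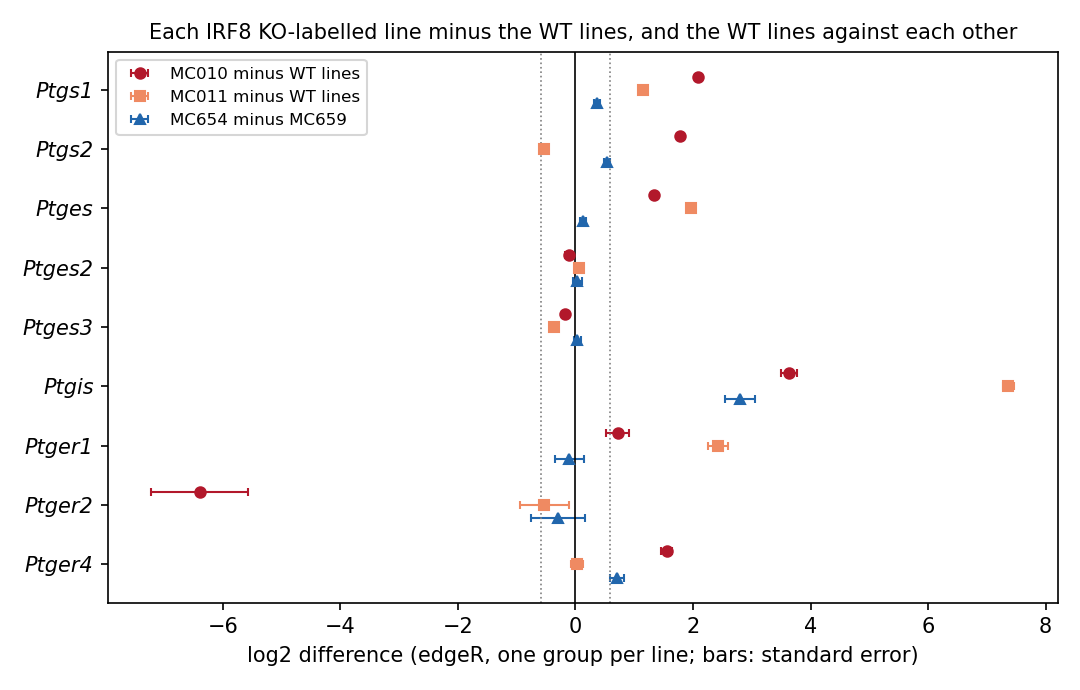
Log2 difference (edgeR, 1 group per line) of MC010 and of MC011 from the mean of the lines labelled WT, and of MC654 from MC659, for each member. Points are estimates, bars standard errors, and dotted lines the fold threshold of 0.59. Ptgs1, Ptges, Ptgis and Ptger1 lay to the right for both lines labelled IRF8 KO, and Ptgs2, Ptger2 and Ptger4 lay outside the dotted lines for MC010 but inside them for MC011.

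Among the receptors, Ptger1 (EP1) was read at 1.20 and 0.952 CPM in MC010, 3.51 and 3.58 CPM in MC011, and, in the same unit, 0.623 and 0.647 in MC654 and 0.703 and 0.667 in MC659. The labels did not overlap and MC011 was the highest line. The log2 difference between labels was 1.81 (SE 0.46, adjusted p = 0.0170), and MC011 exceeded MC010 by 1.71 (SE 0.21, adjusted p = 3.29e-06). The call between labels was lost with the line as a random block (adjusted p = 0.129), with counts summed per line (adjusted p = 0.251), without MC654 (adjusted p = 0.149) and without MC659 (adjusted p = 0.139). MC010 exceeded the lines labelled WT by 0.72 (SE 0.20, adjusted p = 0.00416), and by 0.53 (adjusted p = 0.101) without its first library, so that call rested on 1 library.

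Ptger2 (EP2) was the lowest member. It had 1 and 0 counts in MC010, 21 and 45 in MC011, 39 and 46 in MC654, and 57 and 54 in MC659. Both libraries of MC010 were under the floor of 3 counts, and all other libraries were above it. After scaling for depth, the summed level in MC011 was 70.7 times that in MC010 (95% exact interval 12.3 to 2834). The ratio to MC010 was 94.8 (16.6 to 3788) for MC654 and 117 (20.6 to 4663) for MC659. These intervals cover counting error only. MC010 was called lower than the lines labelled WT (adjusted p = 4.50e-06) and lower than MC011 (adjusted p = 4.05e-05), whereas between labels the adjusted p was 0.298. The steps between MC659, MC654 and MC011 were not called, at 0.30 (SE 0.46) and 0.38 (SE 0.48). How strand was set in counting is not given in the sources used here. Gm17173 overlaps exons of Ptger2 on the opposite strand. It had 1 and 9 counts in MC010 and 14 and 10 in MC011, against 32 to 40 in the libraries labelled WT. Its line means were 0.0656 CPM in MC010, 0.136 CPM in MC011, 0.404 CPM in MC654 and 0.409 CPM in MC659, so MC010 was the lowest line for both genes. Whether reads of Ptger2 and Gm17173 were mixed was not tested.

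Ptger4 (EP4), the other receptor that raises cAMP, was instead highest in MC010. MC010 had 12.7 and 13.1 CPM, MC011 4.24 and 4.71 CPM, MC654 6.004 and 5.23 CPM, and MC659 3.57 and 3.30 CPM. MC010 stood above the other lines, and MC011 lay between the lines labelled WT. The log2 difference between labels, 0.94 (SE 0.43), had an adjusted p of 0.122. MC010 exceeded the lines labelled WT by 1.55 (SE 0.10, adjusted p = 6.57e-10), and MC011 differed from them by 0.03 (SE 0.10, adjusted p = 0.845). MC654 exceeded MC659 by 0.71 (SE 0.12, adjusted p = 0.000900). Exons of Ptger4 overlap those of Ttc33 on the opposite strand, which had line means of 20.5 to 26.1 CPM with the highest in MC011.

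Counted by line, 7 of 9 members were called between MC010 and MC011, which share a label, where 31.6% of all genes were called. MC010 was higher for Ptgs1, Ptgs2 and Ptger4 and lower for Ptges, Ptgis, Ptger1 and Ptger2. Of all genes, 15.7% were higher and 16.0% lower in MC010. Between MC654 and MC659 the called members were Ptgis and Ptger4, both higher in MC654, that is 2 of 9 against 4.95% of all genes (1.24% higher in MC654). Against the lines labelled WT, MC010 had 7 members called (6 higher and Ptger2 lower) and MC011 had 4 (all higher). Of all genes, 37.1% were called for MC010 (19.7% higher and 17.4% lower) and 30.7% for MC011 (17.3% higher and 13.4% lower). These contrasts share the WT libraries. No member was called lower in MC011, by edgeR or by DESeq2, although Ptgs2 and Ptges3 were lower at an unadjusted p under 0.05 in both tools. The 4 members called between labels were called on the same side in both lines, a pattern of 18.0% of all genes, and 0 members were called on opposite sides, a pattern of 2.75%. In all, 5 members did not overlap between labels (the 4 called and Ptges3), where 42.5% of genes tested did not overlap. With 4 libraries against 4, an exact two-sided permutation test gives such a gene p = 0.0286, the smallest it allows, but the libraries of a line are not independent and over lines the smallest is 0.333.

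Compared per length, Ptges3 was the most abundant member in every line, with line means of 126 to 164 RPKM. Next came Ptgs2 in MC010 (108.5 RPKM), MC654 (38.2 RPKM) and MC659 (26.3 RPKM), but Ptges in MC011 (58.1 RPKM). Ptgis reached 19.3 RPKM in MC011, close to the 21.9 RPKM of Ptgs2 there, and was 0.0437 RPKM in MC659. The receptors were all low, and Ptger4 led the member receptors in each line at 0.517 to 1.94 RPKM. In MC011, however, Ptger1 was level with it, at 0.649 RPKM against 0.673 RPKM. The ratio of the Ptger4 level to the Ptger1 level was 8.68 and 11.3 in MC010, 0.994 and 1.08 in MC011, 7.91 and 6.63 in MC654, and 4.17 and 4.07 in MC659.

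**Figure D3:**
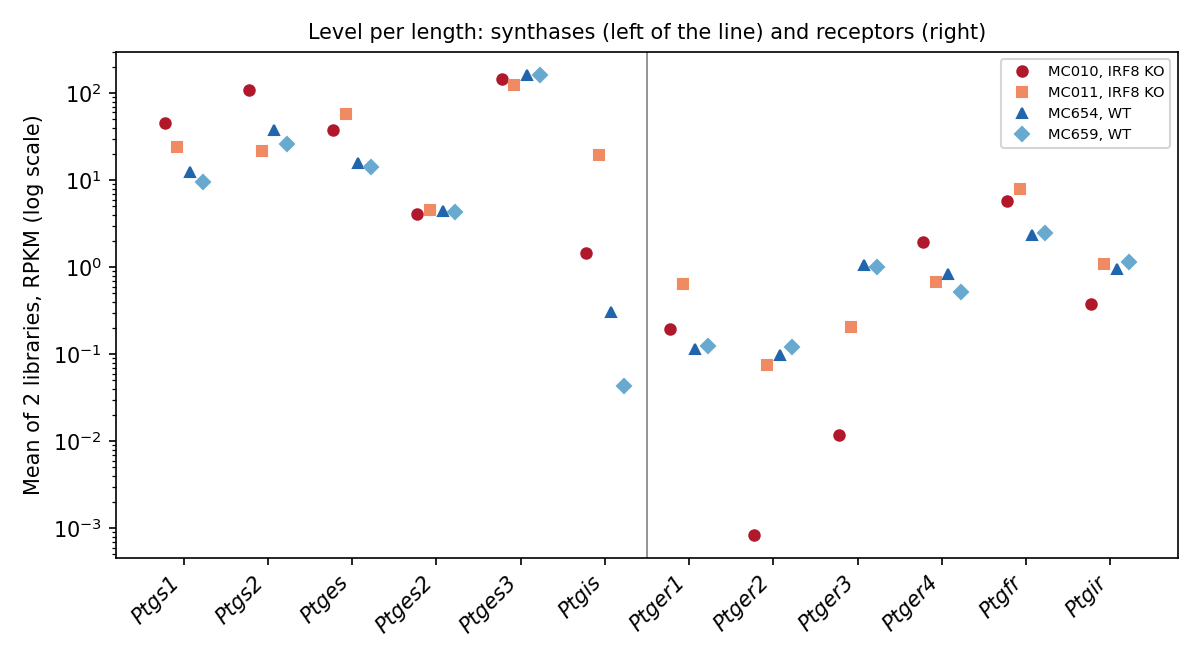
Mean of the 2 libraries of each line in RPKM on a log axis, for the synthase members on the left and for member and other prostanoid receptors on the right. Synthases lay mostly above 1 RPKM and EP receptors at or below 1.94 RPKM, and the Ptger2 point of MC010, at 0.000842 RPKM, rests on 1 count.

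The wider pathway was described through 7 lists of other genes, of which 59 were tested. Between labels 16 of them were called higher and 6 lower (13.7% and 8.72% of all genes), with a median log2 difference of 0.37. With counts summed per line 0 of the 59 were called, 20 having an unadjusted p under 0.05. A limma-voom fit that took the line as a block called 13 higher and 4 lower. Between MC010 and MC011, 16 were higher and 14 lower.

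For arachidonate release, 12 genes were tested and 4 were called between labels, all higher in MC010 and MC011. In that comparison 13.7% of all genes were called higher and 8.72% lower. The largest difference was that of Pla2g7, the platelet-activating factor acetylhydrolase, which removes oxidized short chains from phospholipids and is not a main source of arachidonate. Its level was 722 and 757 CPM in MC010 and 111 and 121 CPM in MC011, against 23.2 to 33.2 CPM in libraries labelled WT (log2 difference 3.91, SE 0.72, adjusted p = 0.00387). Pla2r1, a phospholipase A2 receptor, rose by 1.97, Pla2g4c, a calcium-independent cytosolic phospholipase A2, by 0.68, and Daglb, a diacylglycerol lipase, by 0.66 on the log2 scale. Pla2g4a, the cytosolic phospholipase A2 that supplies most arachidonate for cyclooxygenases, was named after its values were seen and had an adjusted p of 0.208 between labels. Its level was 153 and 171 CPM in MC010 and 78.5 to 92.5 CPM in all other libraries. MC010 exceeded MC011 by 0.97 (adjusted p = 1.57e-09), so the line high in Ptgs2 was also the line high in Pla2g4a.

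The list of receptors and related genes outside the members split by direction. Of its 6 tested genes, 1 was called higher and 2 lower between labels (13.7% and 8.72% of all genes). Ptgfr, the PGF2α receptor, was the highest of the membrane prostanoid receptors per length in each line (see the plot of levels per length). It was read at 37.2 and 41.2 CPM in MC010 and 52.5 and 53.7 CPM in MC011, against 14.6 to 17.9 CPM in libraries labelled WT (log2 difference 1.48, SE 0.14, adjusted p = 0.000157). Ptger3 (EP3) had 0.0787 and 0.0544 CPM in MC010 and 1.54 and 0.836 CPM in MC011, against 4.95 to 6.58 CPM in libraries labelled WT. Its difference was -3.22 (SE 0.95, adjusted p = 0.0290), and that of MC010 from MC011 was -4.095. Pparg, a nuclear receptor that binds prostaglandin J2 derivatives among other lipids, had a difference of -2.41 (SE 0.63, adjusted p = 0.0181) and was also lowest in MC010. EP3 and EP2 were thus both at their lowest in the line where EP4 was highest. The prostacyclin receptor Ptgir had line values of 1.15 and 1.39 CPM in MC010 and 3.01 to 3.89 CPM in all other libraries, and was not called between labels (adjusted p = 0.343). Of the other synthases only Akr1b3, an aldose reductase that can form PGF2α, was tested, and its log2 difference of 0.57 (adjusted p = 0.000164) was under the fold threshold.

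Transport and inactivation genes numbered 6. Between labels 2 were called, both higher in MC010 and MC011, against 13.7% of all genes higher and 8.72% lower. All 6 were called over the lines, as were 51.9% of all genes. Slco2a1 encodes the transporter that takes prostaglandins up for breakdown. It had 230.5 and 222 CPM in MC011, 11.6 and 11.3 CPM in MC010 and 19.0 to 25.3 CPM in the libraries labelled WT. The labels overlapped (adjusted p = 0.0879), and the log2 difference of MC010 from MC011 was -4.30 (adjusted p = 1.30e-16). Akr1c18, an aldo-keto reductase with hydroxysteroid and prostaglandin activity, had 72.9 and 80.3 CPM in MC010, 16.7 and 18.8 CPM in MC011 and 1.29 to 2.69 CPM in libraries labelled WT (log2 difference 4.58, SE 0.64, adjusted p = 0.00106). Cbr1, a carbonyl reductase that can convert PGE2 to PGF2α, was higher by 0.87 (SE 0.28, adjusted p = 0.0416). Abcc4, an exporter of PGE2 that was also named after its values were seen, had 96.8 and 99.6 CPM in MC010, 28.9 and 27.9 CPM in MC011 and 66.0 to 70.8 CPM in the libraries labelled WT. MC011 was thus the line with the most Ptgis and Slco2a1 and the least Ptgs2 and Abcc4 RNA.

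The leukotriene and lipoxygenase branch uses the same arachidonate. Between labels, 2 of its 6 tested genes were called higher and 1 lower (13.7% and 8.72% of all genes). Mgst3, a microsomal glutathione transferase, had 75.8 to 113 CPM in libraries labelled IRF8 KO against 4.85 to 5.75 CPM (log2 difference 4.13, SE 0.16, adjusted p = 3.06e-06). Ephx2, the soluble epoxide hydrolase, differed by 4.12 (SE 0.46) at levels of 0.0333 to 1.62 CPM. Ltc4s, leukotriene C4 synthase, fell by 2.07 (SE 0.66, adjusted p = 0.0396) at levels under 1 CPM in every library.

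Genes that cAMP is known to induce, and that EP2 or EP4 signals can therefore reach, gave 2 higher and 1 lower of 14. These counts were close to the shares of all genes called between labels, 13.7% higher and 8.72% lower. Dusp1, a MAP kinase phosphatase, had 17.5 and 18.7 CPM in MC010, 42.4 and 42.8 CPM in MC011 and 6.10 to 8.53 CPM in libraries labelled WT (log2 difference 2.05, SE 0.34, adjusted p = 0.00255). Sik1, a kinase of the same response, rose by 1.06 (SE 0.20) and Vegfa, an angiogenic factor, fell by 1.08 (SE 0.10). Il6 had 0.259 to 0.430 CPM in libraries labelled IRF8 KO and 0 to 0.129 CPM in those labelled WT and was not called (adjusted p = 0.0606). Between MC010 and MC011, 6 of the 14 were higher and 2 lower in MC010, against 15.7% and 16.0% of all genes. Each of these genes answers to other signals too.

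Among 14 known inducers of Ptgs2 or regulators of its mRNA, 5 were higher and 2 lower between labels (13.7% and 8.72% of all genes). The higher ones were the interleukin-1 receptor Il1r1 (2.06), the NF-kB subunit Rela (0.89), the NF-kB inhibitor and target Nfkbia (1.90), and the transcription factors Cebpd (2.86) and Jun (0.97). Egr1, an immediate-early transcription factor, was at 26.4 to 65.1 CPM in libraries labelled IRF8 KO and 349.8 to 374 CPM in those labelled WT, with a difference of -3.01 (SE 0.34, adjusted p = 0.000389). Zfp36, a protein that destabilizes AU-rich mRNAs, differed by -0.60 (SE 0.10, adjusted p = 0.00247). Between MC010 and MC011, 2 of the 14 were called higher in MC010 (Egr1 by 1.27 and Nfkb1 by 0.76) and 3 higher in MC011 (Il1r1, Nfkbia and Cebpd), where 15.7% and 16.0% of all genes were called. Nfkb1, an NF-kB subunit named after its values were seen, had 198 and 195.5 CPM in MC010 and 112 to 119.6 CPM in all other libraries, and so was high in the line high in Ptgs2. Il1r1, Nfkbia and Cebpd had the order of lines of Ptges, and so did Tnfrsf1a, Jun and Fos of the same list. The last step of that order, from MC654 to MC659, was not called for Ptges itself.

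**Figure D4:**
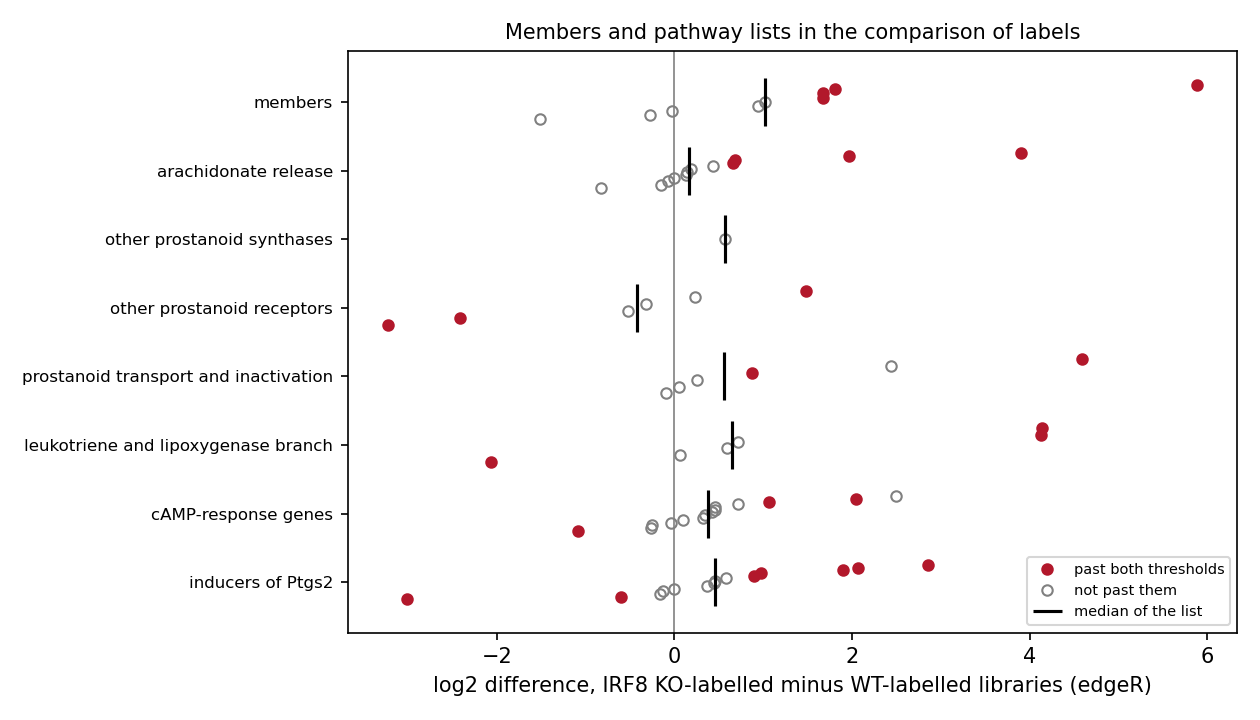
Log2 difference between labels (edgeR, IRF8 KO minus WT) of each tested gene of the member list and of the 7 pathway lists, with filled points past both thresholds, open points not past them, and a black bar at the median of each list. The members had a median of 1.01 and called genes on the right only, whereas 4 of the other lists had called genes on both sides.

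The genes whose pattern lay closest to Ptgs2 and to Ptges over the 8 libraries were found by the root mean square difference of centred log2 CPM among 10688 genes. Closest to Ptgs2 was Dusp6, an ERK phosphatase, at 0.15 on the log2 scale. Gm2830, Slc16a10, Cdkn1a and Tpbg followed at 0.19 each. Dusp6 had line means of 388, 98.6, 156 and 96.3 CPM in MC010, MC011, MC654 and MC659, beside 497, 100.5, 175 and 121 CPM for Ptgs2. Closest to Ptges was Cplx2, a complexin, at 0.10, followed by the syndecan Sdc3, Nfkbia, Card19 and the transcription factor Atoh8 at 0.12 to 0.13. Nfkbia had line means of 39.6, 68.5, 14.8 and 14.1 CPM, beside 148, 228, 61.3 and 56.3 CPM for Ptges. With 4 lines behind the 8 libraries, such a likeness describes these lines and was not tested.

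**Figure D5:**
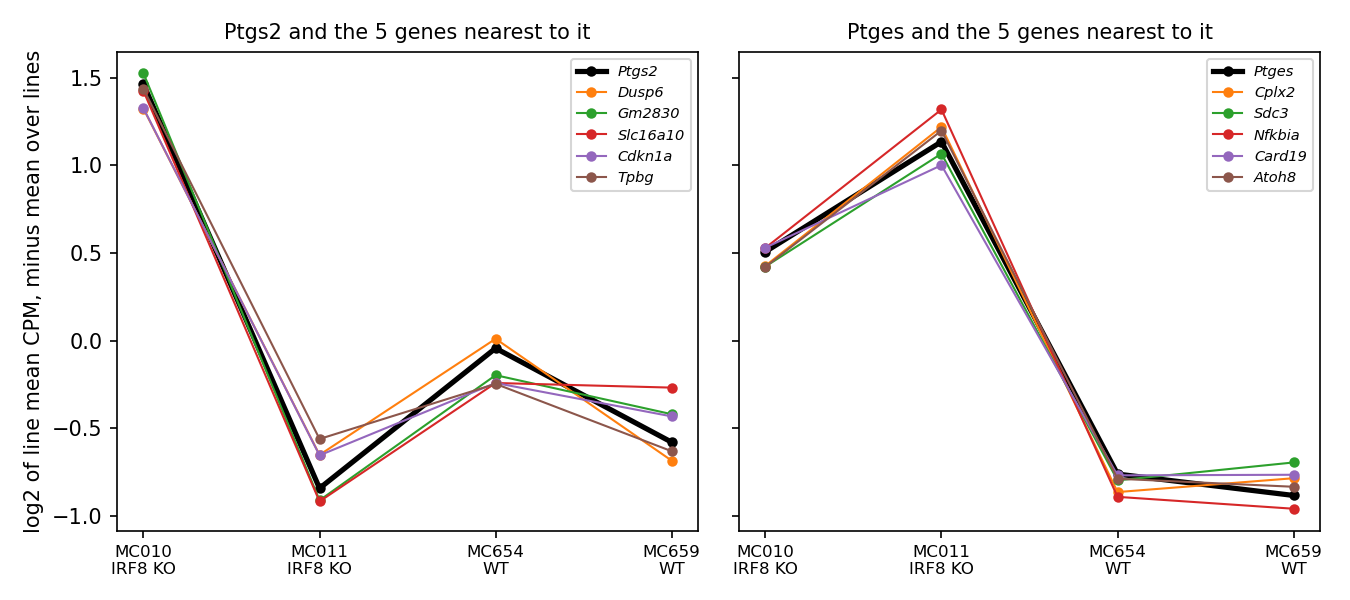
Line means in log2 CPM, each gene centred on its mean over the 4 lines, for Ptgs2 (left, black) and Ptges (right, black) with the 5 genes nearest to each. The Ptgs2 group peaked in MC010 and was lowest in MC011 or MC659, and the Ptges group was highest in MC011, next in MC010 and low in MC654 and MC659.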

How the data were processed

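RNA of 8 libraries, 2 from each of 4 cell lines, was sequenced as stranded mRNA libraries. Alignment to mm10 was done by the authors with STAR, gene counting with HTSeq and the genotype comparison with DESeq2. The submitters' processing notes give STAR 2.7.3a and HTSeq 0.11.2. The authors deposited a raw count per gene and library and a signal, the count divided by a size factor per library. Their columns of means, fold changes, errors, statistics and p-values hold their own comparison and were not used. Every gene listed had at least 20 counts in all, and a gene with less was not analysed here. The deposited counts held 0 genes of the X and Y chromosomes, so the shares of all genes leave these chromosomes out.

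The raw counts were analysed with edgeR 4.0.16 in R 4.3.3, with filterByExpr by label, TMM scaling and robust quasi-likelihood fits, once by label and once with 1 group per line. Standard errors came from the F statistic. Filters and scaling can move low genes most. Alternatives used DESeq2 1.42.0 and limma 3.58.1 among others. The fits were also run on simulated counts with independent libraries. The simulated label comparison had no spread between lines of a label, so it cannot vouch for the label fit where lines differ. Floors and intervals cover counting error only. RPKM used exon lengths of the gene annotation.

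The members and lists were chosen with earlier results of these data known. Named genes were all members, list genes called between labels, the 2 genes per list with the widest range over lines, the 5 genes nearest to Ptgs2 and to Ptges, and Irf8. Other genes named were chosen after their values were seen. Sequences are from RefSeq (GRCm38.p6). An item is not reported here.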

Additional observations from a re-analysis of the deposited data

Results flagged for a closer look

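For 7 members the difference from the lines labelled WT was not the same in the lines labelled IRF8 KO, by edgeR's test of MC010 minus MC011 with 1 group per line. The log2 difference was 0.93 for Ptgs1, 2.31 for Ptgs2 and 1.53 for Ptger4, which were higher in MC010. It was -0.63 for Ptges, -3.73 for Ptgis, -1.71 for Ptger1 and -5.86 for Ptger2, which were higher in MC011. The Ptger2 value is a fitted one that rests on 1 count in MC010, and it ranged from -8.05 to -5.04 as single libraries were left out. Of all genes tested, 31.6% differed between these lines by the same thresholds. Each line is 1 tumor, so the line, its tumor and its culture cannot be told apart.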

How the results depend on the processing

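Between labels, 4 members were called, and 4 in each fit that left out 1 library. The calls numbered 2 with limma-voom and the line as a random block (Ptgis then had an adjusted p of 0.306 and Ptger1 of 0.129), 7 without line MC011, 2 without line MC659 (Ptgis 0.0930, Ptger1 0.139), and 0 with counts summed per line, where 3 members had an unadjusted p under 0.05 and the adjusted p was 0.0932 for Ptges, 0.134 for Ptgs1, 0.195 for Ptgis and 0.251 for Ptger1. Without line MC654, Ptger1 had an adjusted p of 0.149. In the pathway lists, the number of calls was 22 in the main fit, 0 with counts added per line (20 genes at an unadjusted p under 0.05) and 13 without line MC659. Between MC654 and MC659, 4 members passed with the adjusted p alone in place of 2.

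Without line MC010, the difference between labels turned to -0.58 for Ptgs2 (adjusted p = 0.0779) and -0.035 for Ptger4. Without line MC011 it was 1.74 for Ptgs2, 1.503 for Ptger4 and -6.41 for Ptger2, each called. The remaining changes of sign were among differences that were not called. Ptges2 between labels was 0.001 with limma-voom, 0.044 without line MC010 and -0.074 to 0.015 with 1 library left out. MC654 minus MC659 was -0.036 to 0.098 for Ptges2 and -0.029 to 0.087 for Ptges3 with 1 library left out. MC011 against the lines labelled WT was -1.36 to 0.015 for Ptger2 and -0.047 to 0.093 for Ptger4 with 1 library left out, and -0.001 for Ptger4 with upper-quartile scaling. Without the second library of MC011, Ptger2 was called lower there, at -1.36 (adjusted p = 0.0412). The causes were not tested.

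With 1 library left out, the calls numbered 7 over lines and between MC010 and MC011, 2 between MC654 and MC659, 6 to 7 for MC010 and 4 to 5 for MC011 against the lines labelled WT, and 18 to 22 in the lists. Nothing in the labels ties libraries of the same number. Their deviations from line means correlated at 0.232, 0.366 and 0.314 among MC010, MC011 and MC654 but at -0.236 to -0.151 between these and MC659, so the number was not taken as a pairing. With the number as a replicate block, the calls were 4 between labels, 7 over lines, 7, 2, 7 and 4 in the contrasts of lines in the order above, and 21 in the lists. A block that pairs MC654 with MC010 and MC659 with MC011 added Ptger4 (0.79, adjusted p = 0.0117). At this depth, Ptger2 in MC010 rests on 1 count over both libraries.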
